A study of Mus musculus with 15 samples.

Results

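The comparison described here was that of histone H3 lysine 4 monomethylation (H3K4Me1) at 48 hr post-induction (hpi) with H3K4Me1 at 12 hpi, with 24 hpi as the step between. It used 3 of the 15 chromatin immunoprecipitation sequencing (ChIP-seq) libraries of the series, which cover 3 marks at 5 times with 1 library each. The genome (mouse build mm9, chromosomes 1 to 19 and X) was cut into 879654 windows of 3 kb, of which 831418 held a tag in any library. A window was marked when it was enriched for H3K4Me1 at 12 or at 48 hpi, that is, when its tags had a Poisson upper tail below 0.001 over the mean of 13.1 tags per window, which took at least 27 tags. This left 110712 marked windows, 13.3% of those that could be mapped, and 76879 of them were enriched at both times. A marked window was called gained when it was enriched at 48 hpi and its tags were at least 2-fold higher than at 12 hpi, and lost when it was enriched at 12 hpi and its tags were at least 2-fold lower at 48 hpi. Windows whose centre lay within 2500 bp of an annotated transcript start were called near a start (26124 marked windows), and the rest beyond a start (84588).

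All libraries came from C10 cells, a single line of HAFTL-derived mouse pre-B cells that carries the inducible fusion protein C/EBPαER, tagged with GFP. In all 3 groups compared the cells were kept, per the labels, with 100 nM β-estradiol, IL-3 and CSF-1 at 10 nM each, for 12, 24 or 48 hr. The study's methods give the β-estradiol dose in µM rather than nM, and the sources do not settle which is meant. Per the labels, control cells had 0.1% ethanol, the solvent. The libraries at 0 and 3 hpi were used to place the changes in the time course and, together with the others, to choose reference windows for other scalings. Neither clones of the line nor repeat cultures were included, so each value stands for 1 library, and no test between times was made. Intervals cover only the counting error of tags or, for shares, of windows.

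C/EBPα is a transcription factor of myeloid cells, and its fusion to the estrogen receptor is moved into the nucleus when the hormone is added. From weak C/EBPα signals in uninduced cells the study proposes that the transgene is somewhat leaky. Active C/EBPα in B cell precursors switches them to a macrophage fate. H3K4Me1 lies on the nucleosomes of enhancers, both poised and active ones, and on the flanks of promoters, whereas the nucleosomes right at an active start usually carry the trimethylated form instead. Acetylation of H3 lysine 27 (H3K27Ac) marks the active ones among enhancers and promoters, and H3K27Me3 is the mark of Polycomb repression. In a population of cells, a window with the mark in fewer cells and a window with less of the mark per cell cannot be told apart.

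To show what the changed windows look like, the 300 bp tile with the most tags is given for 2 gains and 2 losses beyond starts, on the plus strand of mm9. Capitals mark letters that match one of the motifs searched for below. The tiles of Vdac2 and Slc2a1 lie upstream of these genes and between genes, held 1 and 0 tags at 12 hpi, and rose to 27 and 22 tags at 48 hpi. The tile of Klf6 overlaps coding sequence of this gene, and that of B4galt5 lies upstream of its gene and between genes. These had 37 and 47 tags at 12 hpi, and 0 and 6 tags at 48 hpi.
Vdac2, chr14:22640401-22640700: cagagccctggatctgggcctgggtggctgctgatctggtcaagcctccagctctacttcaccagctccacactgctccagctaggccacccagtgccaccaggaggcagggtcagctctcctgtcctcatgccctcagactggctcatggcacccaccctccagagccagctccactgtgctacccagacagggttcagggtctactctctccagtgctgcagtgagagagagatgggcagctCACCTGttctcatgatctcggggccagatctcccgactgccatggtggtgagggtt
Slc2a1, chr4:118759501-118759800: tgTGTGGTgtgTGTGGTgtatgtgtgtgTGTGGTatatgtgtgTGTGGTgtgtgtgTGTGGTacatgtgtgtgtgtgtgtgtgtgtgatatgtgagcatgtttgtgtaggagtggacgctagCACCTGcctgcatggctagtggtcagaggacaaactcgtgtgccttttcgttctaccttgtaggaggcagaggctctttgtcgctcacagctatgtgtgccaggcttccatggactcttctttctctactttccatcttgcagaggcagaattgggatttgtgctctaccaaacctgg
Klf6, chr13:5864401-5864700: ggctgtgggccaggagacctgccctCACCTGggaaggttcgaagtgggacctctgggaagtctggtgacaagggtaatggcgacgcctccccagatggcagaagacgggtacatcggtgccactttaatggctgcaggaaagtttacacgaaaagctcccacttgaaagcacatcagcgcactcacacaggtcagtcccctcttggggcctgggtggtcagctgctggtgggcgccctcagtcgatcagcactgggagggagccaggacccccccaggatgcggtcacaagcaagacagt
B4galt5, chr2:167186401-167186700: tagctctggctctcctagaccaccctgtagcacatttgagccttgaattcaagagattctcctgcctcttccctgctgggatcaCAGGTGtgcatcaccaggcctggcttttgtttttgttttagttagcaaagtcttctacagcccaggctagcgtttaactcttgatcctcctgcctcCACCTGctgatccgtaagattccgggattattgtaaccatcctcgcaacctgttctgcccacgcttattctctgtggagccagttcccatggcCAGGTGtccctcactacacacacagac
The capitals in these tiles are CAGGTG (E protein) or TGTGGT (RUNX) in either orientation, and the tile of Slc2a1 opens with a TG repeat that holds 5 of the latter. The next stretches of 41 bases are shown because the AP-1 letters TGANTCA, in capitals, were more frequent in gained windows than in the other marked windows. Within 250 bp of the match, the tags at 12, 24 and 48 hpi were 0, 11 and 40 for Vdac2, 3, 13 and 40 for 4930579J09Rik, 1, 9 and 28 for Sgip1 and 1, 7 and 21 for Aqp9.
Vdac2, chr14:22640207-22640247: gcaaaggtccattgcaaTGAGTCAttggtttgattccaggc
4930579J09Rik, chr19:10570094-10570134: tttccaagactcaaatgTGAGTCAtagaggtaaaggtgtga
Sgip1, chr4:102559220-102559260: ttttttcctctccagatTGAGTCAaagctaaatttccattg
Aqp9, chr9:70991790-70991830: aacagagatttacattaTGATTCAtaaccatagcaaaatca
The last pair shows the EBF1 letters CCCNNGGG, in capitals, in lost windows near starts. Within 250 bp of these matches the tags at 12, 24 and 48 hpi were 94, 14 and 6 for Zbtb7a and 9, 3 and 1 for Clic1. Not every named window has such a stretch: the EBF1 match in the lost window of Rbpj had 0, 0 and 0 tags around it, and the gained window of Dusp16 holds 0 matches to the AP-1 letters. All of these stretches were picked after the values had been seen, as examples of the letters and not as evidence for them.
Zbtb7a, chr10:80603201-80603241: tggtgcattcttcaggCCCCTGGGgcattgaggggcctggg
Clic1, chr17:35188888-35188928: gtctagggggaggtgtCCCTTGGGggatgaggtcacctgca

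The 12, 24 and 48 hpi libraries held 16.77, 12.66 and 11.04 M tags, and 16.41, 12.48 and 10.91 M after 1 tag was kept per position. They were thinned at random to the smallest, 10.91 M. At equal depth 86193, 95928 and 101398 windows were enriched, and these held 72.7%, 73.9% and 73.7% of all tags, so that the share of tags in enriched windows differed little between the 3 libraries. Defining genes were looked at in the H3K27Ac libraries of the same times, counting tags within 1500 bp of the start. These are other libraries, so the counts do not check the labels of the H3K4Me1 libraries. H3K4Me1 at macrophage starts, given below, went both ways. At the pre-B genes Cd79a, Igll1 and Pax5 H3K27Ac went from 708, 1361 and 650 tags at 12 hpi to 312, 465 and 277 at 48 hpi. At Cd14, the macrophage co-receptor for endotoxin, it went from 432 to 1278 tags, and at Itgam, which encodes CD11b (Mac-1), from 25 to 95. Of the markers looked at, 7 of 8 pre-B genes had less H3K27Ac at 48 than at 12 hpi, the exception being Rag1 with 26 and 31 tags. All 7 macrophage markers had more, although Fcgr1, with 184 and 194 tags, differed by less than the shift that scaling brings (0.12 on the log2 scale). The rise was not steady, since all of these but Cd14 had their highest value at 24 hpi. Csf1r had 203, 494 and 245 tags at 12, 24 and 48 hpi, and Fcgr1 had 478 at 24 hpi.

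H3K4Me1 spread over many more windows than it left. Between 12 and 48 hpi 22810 windows were gained, 20.6% of the marked windows, and 8157 were lost, 7.37%. The gains covered 68.4 Mb and the losses 24.5 Mb. The 2 directions differed in place: 12.2% of gains lay near a start (exact 95% binomial interval 11.8 to 12.7), against 34.1% of losses (33 to 35.1), where 23.6% of all marked and 9.32% of all mappable windows did so. These intervals treat windows as independent draws, although the 22810 gains form 16225 runs of adjacent windows. They hold no error of tag counts or between libraries. Near starts 2793 windows were gained, 10.7%, and 2778 were lost, 10.6%. This balance near starts turned with the scale, with 2531 gains and 3206 losses when the libraries were scaled by windows enriched at no time, and 3668 and 1434 when scaled by windows enriched at all times. Beyond starts 20017 windows were gained, 23.7%, and 5379 were lost, 6.36%. Strong changes were more one-sided still, with 6782 gains of at least 4-fold, 6.13% of the marked windows, and 428 losses of at least 4-fold, 0.387%. Of the 4-fold gains 10.5% were near a start, and of the 4-fold losses 51.6%.

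The balance of gains and losses depends on how the libraries are set to a common scale. Equal depth was used above, and gains were then 73.7% of all calls. When the libraries were scaled by windows that were enriched at all 5 H3K4Me1 times, 48 hpi rose by 0.25 on the log2 scale relative to 12 hpi, 28942 windows were gained and 3796 lost, and gains were 88.4% of calls. Scaling by windows enriched at none of the times gave a shift of -0.07, 20972 gains and 9531 losses, 68.8% gains. The shift of H3K27Ac at 48 hpi was 0.12 and 0.11 under these scalings. Over all windows, gains outnumbered losses under each, but the sign of small medians did not hold, as given with each.

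The change followed the distance from the start. On the log2 scale of tags plus 1, the median of all marked windows was 0.04 at equal depth, -0.02 when scaled by windows enriched at no time, and 0.29 when scaled by windows enriched at all times. Near starts it was -0.21, and 0.03 under the last scaling. Beyond starts it was 0.16, and 0.40 under the last scaling. Windows centred within 500 bp of a start had a median of -0.31, which rose to -0.27 at 500 to 1000 bp, -0.13 at 1000 to 2500 bp and 0.10 at 2500 to 5000 bp. It was 0.19 at 5000 to 10000 bp and 0.18 from there up to 50000 bp, and lower again at 0.14 up to 100000 bp and 0.07 up to 250000 bp. Another scaling moves all classes together, and under that by windows enriched at all times the medians were -0.07 within 500 bp, 0.11 at 1000 to 2500 bp, which turned its sign, and 0.44 at 5000 to 10000 bp. Losses took 12.8% of the marked windows within 500 bp and 5.82% of those at 5000 to 10000 bp, while gains took 9.07% and 23.6%. The same held for each chromosome: the median near starts lay between -0.29 and -0.16, and that beyond starts between 0.00 on chromosome X and 0.24 on chromosome 14.

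**Figure D1:**
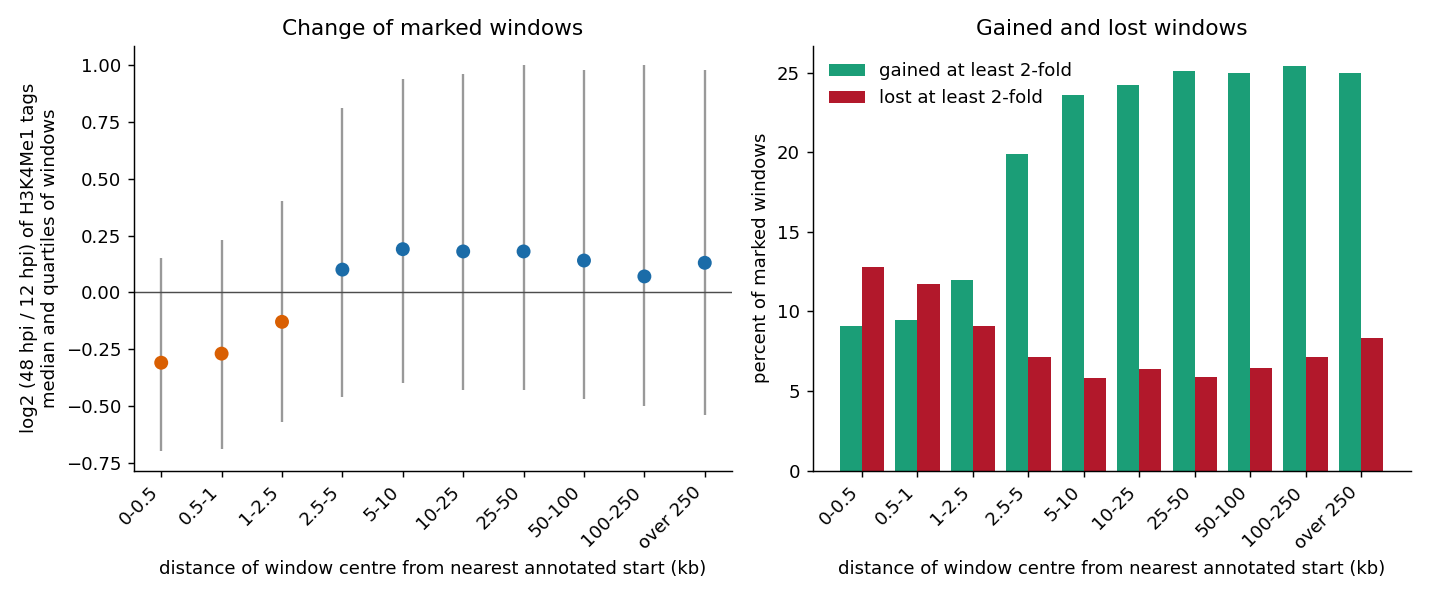
Change of H3K4Me1 in marked windows by the distance of the centre from the nearest annotated start, in classes of kb. Left, the log2 ratio of tags (48 over 12 hpi) as medians with quartiles of the windows, from -0.31 within 500 bp to 0.19 at 5000 to 10000 bp. Right, the percent gained and lost, with losses above gains only within 1000 bp.

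A finer profile over the starts of the 22208 protein-coding genes showed lower H3K4Me1 at the start. Within 500 bp the mean H3K4Me1 was 8.09 tags per start at 12 hpi, 6.16 at 24 hpi and 5.33 at 48 hpi. From 500 to 2500 bp it was 28.9, 25 and 23.9 tags downstream and 26.3, 23.7 and 22.2 upstream. These differences on the flanks are about as large as the 0.25 on the log2 scale by which scaling by windows enriched at all times raised 48 hpi. H3K27Ac within 500 bp was 73.1, 78.3 and 64.5 tags, with the highest value at the step between, while H3K4Me1 was lower at each step. The share of H3K27Ac tags in enriched windows was also highest at 24 hpi, with 69.1%, 80.3% and 73% at the 3 times, and its part in this result was not tested. For the 2247 genes with a lost window near their start, H3K4Me1 within 500 bp was 17.4, 10.9 and 7.76 tags, and from 500 to 2500 bp downstream 54.8, 38.6 and 31.7 tags. H3K27Ac at the same genes was 128.5, 137.9 and 109.2 tags within 500 bp. These genes were chosen for the loss, which makes their H3K4Me1 at 12 and 48 hpi a description. Their H3K4Me1 at 24 hpi and their H3K27Ac were not used in the choice, although a chosen fall from 12 to 48 hpi makes H3K4Me1 in between likely at 24 hpi.

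**Figure D2:**
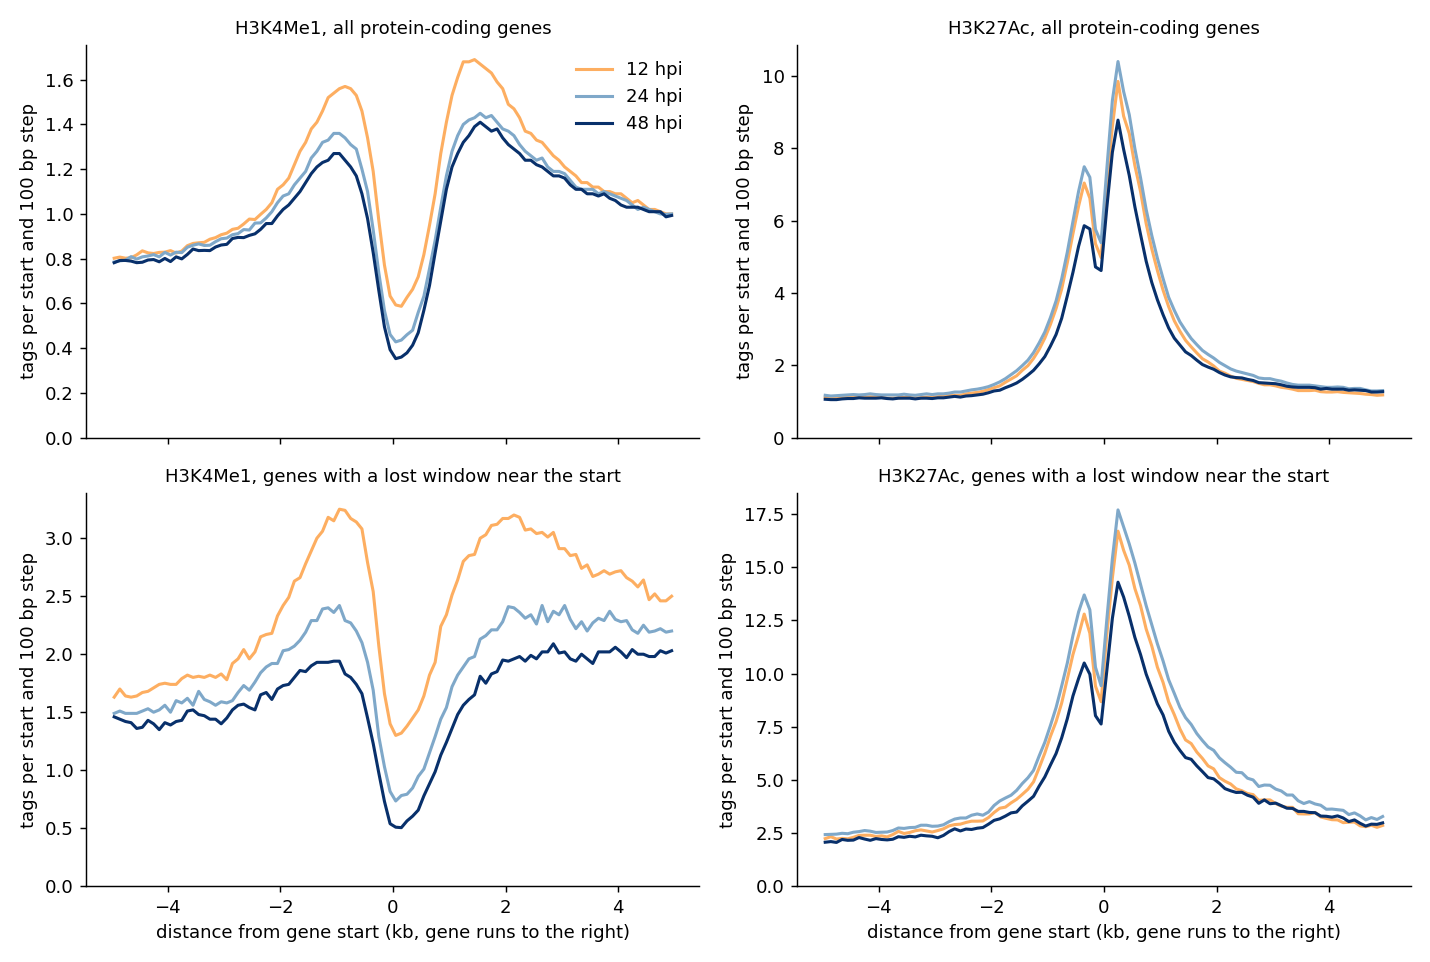
Mean tags per start in steps of 100 bp, by distance from protein-coding starts in kb, at 12, 24 and 48 hpi, for H3K4Me1 (left) and H3K27Ac (right), over all 22208 genes (top) and the 2247 with a lost window near the start (bottom). H3K4Me1 dips at the start and, at equal depth, is highest at 12 hpi at the start and on both flanks, where the difference over all genes is about as large as the shift of 0.25 (log2) by scaling, while H3K27Ac is highest at 24 hpi.

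Most gained windows were not enriched at 12 hpi or before. For 12 hpi this was in part fixed by the call, which required a low count there relative to 48 hpi. Over 0, 3, 12, 24 and 48 hpi the median gained window held 14, 13, 16, 34 and 54 tags, against a genome mean of 13.1. At 12 hpi 25.5% of gained windows were enriched, and at 24 hpi 64.2%. Only 23.7% had been enriched at 0 or 3 hpi. Lost windows, which had to be enriched at 12 hpi to be called, had medians of 68, 80, 75, 47 and 30 tags at the same times. Of them 94.4% had been enriched at 0 or 3 hpi, compared with 84.9% of windows called neither and 73% of all marked windows. The latter sets were not held to enrichment at 12 hpi, where 90.6% and 77.9% of them were enriched. At 48 hpi 55.3% of lost windows were still enriched.

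At 24 hpi, which was not used to choose the windows, 90% of gained and 93.7% of lost windows had a count strictly between those of 12 and 48 hpi. These windows were chosen for a wide gap between 12 and 48 hpi, which makes a count in between likely at 24 hpi. In tags, the median gained window had reached 47.4% of its rise by then, and the median lost window 62.2% of its fall. On the log2 scale, chosen after the values had been seen, the order was the other way, with 62.7% for gains and 52.8% for losses. A steady fold change puts a rise late and a fall early when counted in tags, so neither direction is called the faster. From 12 to 24 hpi 53.2% of gains rose at least 2-fold, and from 24 to 48 hpi 26.2% did. For losses the shares that fell at least 2-fold were 17.5% and 14.6%. In tags the median gained window went from 16 to 34 and then to 54. The intervals differ in length, and the call favoured a low count at 12 hpi, so neither interval is called the steeper.

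**Figure D3:**
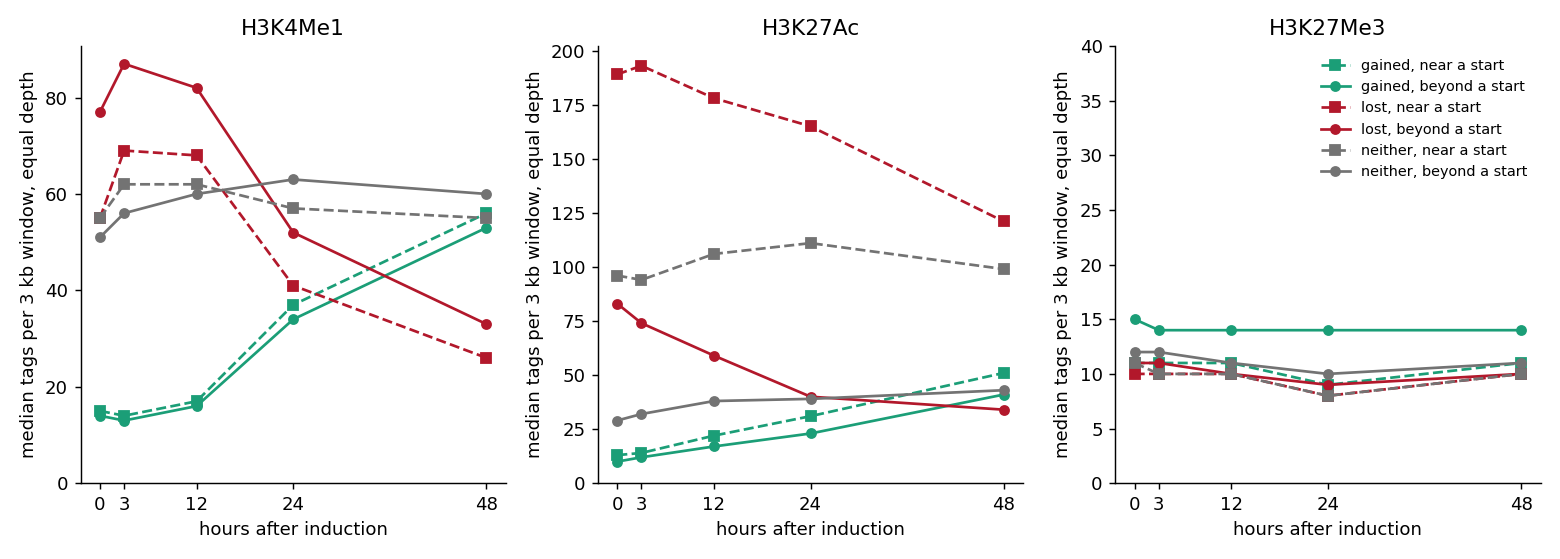
Median tags per 3 kb window at equal depth against hours after induction, for H3K4Me1, H3K27Ac and H3K27Me3 in gained, lost and other marked windows near (dashed) and beyond (solid) starts, with 1 library per time. H3K4Me1 in gained windows beyond starts goes from 16 tags at 12 hpi to 53 at 48 hpi and in lost windows beyond starts from 82 to 33, and H3K27Ac is highest in lost windows near starts.

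H3K27Ac moved with H3K4Me1 at gains, and less at losses. In gained windows its median was 11, 12, 18, 23 and 42 tags at 0, 3, 12, 24 and 48 hpi, and the median log2 change from 12 to 48 hpi was 1.14, with 1.10 near and 1.15 beyond starts. In lost windows it was 110, 100, 82, 61 and 47 tags, and the median change was -0.51, with -0.32 near and -0.63 beyond starts. Windows called neither had a median of 0.00. Acetylated at 12 or 48 hpi were 60.6% of gained windows, 70.9% of lost windows and 69.8% of the rest. Of these acetylated gains, 72.2% had at least 2-fold more H3K27Ac at 48 hpi and 0.0867% at least 2-fold less, where 22.4% and 8.83% of all acetylated marked windows did so. Of the acetylated losses, 30.7% had at least 2-fold less and 1.75% at least 2-fold more. Lost windows near starts were the more heavily acetylated, with a median of 178 tags at 12 hpi and 121 at 48 hpi, against 59 and 34 beyond starts. H3K27Me3 had a median of 14 tags at every time in the gained windows. The share of these enriched for it was 21.1%, 20.5%, 25.6%, 28.1% and 27.7% at 0, 3, 12, 24 and 48 hpi. In lost windows this share was 10.5% at 0 hpi and 11.6% at 48 hpi, and in the rest 13% and 14.3%.

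The strongest single gains beyond starts were ranked by the bound of the ratio's exact 95% interval that lay nearest to 1. A window 55353 bp upstream of Ccny, which encodes cyclin Y, held 3, 25 and 309 tags at the 3 times, and its log2 ratio of 6.28 had an interval of 5.13 to 8.97. The window 10990 bp upstream of Vdac2, a channel of the outer mitochondrial membrane, had 1, 37 and 117 tags, and one that holds coding and untranslated sequence of Dusp16, a phosphatase of MAP kinases, had 1, 22 and 111. A window in intron sequence of 1600002D24Rik, 102004 bp from the start of Psmg1, had 6, 48 and 251 tags. In each of these the count at 24 hpi lay between the other two.

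The window 21815 bp upstream of Slc2a1, the glucose transporter GLUT1, went from 0 tags to 10 and then 72. This is 24-fold when 3 counts are taken as the floor at 12 hpi, without the counting error of 48 hpi. The exact interval of its log2 ratio had a lower bound of 4.25. An intron window of Aqp9, a channel for water and glycerol, went from 0 to 9 and 57 tags. This is 19-fold with the same floor, and the lower bound of the interval was 3.90. Windows upstream of 4930579J09Rik and in an intron of Sgip1, an endocytic adaptor, had 5, 53 and 215 and 3, 43 and 144 tags. Of these 8 windows none had more than 12 tags at 0 or 3 hpi. The ranking favours a low count at 12 hpi, and some windows held more before. At 0, 3 and 12 hpi Ccny had 12, 12 and 3 tags and Vdac2 9, 4 and 1. Of all gained windows, 10.2% were at least 2-fold lower at 12 than at 0 hpi and 20.3% at least 2-fold higher. Near starts, windows at Ptpn5, a tyrosine phosphatase, and Taf3, a subunit of the general transcription factor TFIID, had 6, 60 and 175 and 3, 13 and 91 tags. The other three near windows lay at starts of noncoding RNAs: 1 in 4930505K14Rik had 0, 6 and 51 tags (nearest protein-coding start Katnal1, 100154 bp away), 1 in Patl1 at a SNORA17 start had 1, 10 and 70, and 1 in Cnot1 at a SNORA46 start (nearest Setd6) had 1, 9 and 59. At 0, 3 and 12 hpi the window in Patl1 had 13, 6 and 1 tags and that in Cnot1 11, 22 and 1. H3K27Ac was higher at 48 than at 12 hpi in each of the 13 named gains, by 1.79 (Patl1) to 4.55 (Psmg1) on the log2 scale. At Ccny it went from 21 to 445 tags and at Taf3 from 19 to 239.

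Most of the strongest single losses lay just inside genes, in windows with much H3K27Ac. A window 2766 bp downstream of the start of Klf6, a zinc finger transcription factor of the myeloid list, had 109, 30 and 2 tags, a log2 ratio of -5.20 (interval -8.83 to -3.88), while its H3K27Ac was 615, 868 and 900 tags. At Rbpj, the DNA-binding partner of Notch, the window 1688 bp downstream of the start had 85, 13 and 1 H3K4Me1 tags and 367, 852 and 1003 H3K27Ac tags. At Mpeg1, which encodes the pore-forming protein perforin-2 of macrophages, H3K4Me1 was 80, 10 and 6 tags and H3K27Ac 706, 818 and 901. The antiproliferative gene Btg1 had 55, 5 and 3 tags of H3K4Me1, and 160, 384 and 494 of H3K27Ac. In all 4 windows H3K4Me1 was lower and H3K27Ac higher at each step.

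Of the other losses beyond starts, B4galt5, a galactosyltransferase of glycolipid synthesis, had 188, 81 and 9 tags, and Stambpl1, a deubiquitinase, 226, 103 and 15. St8sia4, a polysialyltransferase, had 228, 90 and 20, Pla2g4a, the phospholipase that releases arachidonic acid, 193, 127 and 19, and the chromatin remodeller Chd2 145, 43 and 16. Near starts, Zbtb7a, a repressor of the zinc finger family, had 318, 54 and 22 tags, Hspa9, the mitochondrial heat shock protein mortalin, 73, 45 and 1, Fndc3a 67, 26 and 2, and the chloride channel gene Clic1 101, 30 and 5. Unlike most lost windows, in which acetylation was lower at 48 hpi, 11 of these 13 had more H3K27Ac at 48 than at 12 hpi. The exceptions were Zbtb7a and Clic1, at -0.05 and -0.08 on the log2 scale, differences smaller than the shift of H3K27Ac by scaling.

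**Figure D4:**
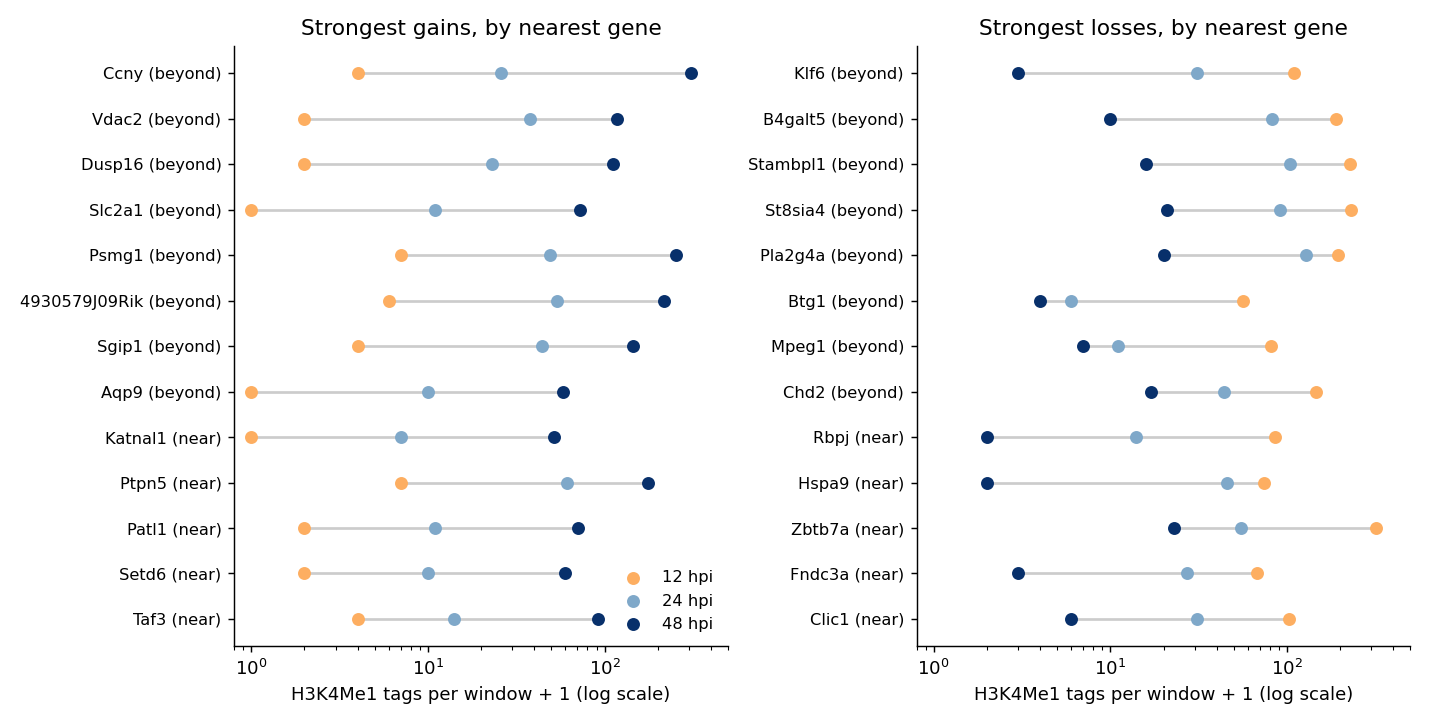
H3K4Me1 tags per window plus 1 (log axis) at 12, 24 and 48 hpi in the 13 named gained (left) and 13 named lost (right) windows, labelled by nearest gene, with 1 library per time. Gained windows held 0 to 6 tags at 12 hpi and 51 to 309 at 48 hpi, and lost windows 55 to 318 and 1 to 22. The 24 hpi point lies between in every window, which the choice of windows with a wide gap makes likely.

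Most runs of changed H3K4Me1 windows were single windows. The gained windows formed 16225 runs of adjacent windows, 74.1% of them single windows, and the lost windows 6812 runs, 84.4% single. Counted by window, 12018 of the 22810 gained and 5746 of the 8157 lost windows stood alone. Runs of all marked windows were not counted, and gains are the larger set, so the lengths of runs are a description. Runs of 4 or more windows numbered 520 among gains and 56 among losses. The longest gains spanned 39 kb each. Each run is named by the gene nearest to its middle window. The one at Nckap1l, which encodes the blood cell actin regulator HEM1, had 421, 1376 and 2026 tags at 12, 24 and 48 hpi. The one at Cdh1 (E-cadherin) had 247, 954 and 1306. Another at Rbpj had 333, 638 and 1305 tags, in the same gene whose start lost the mark, and the one at the mismatch repair gene Msh3 had 230, 681 and 1260. Gained runs of 36 kb lay at Notch2, with 378, 1185 and 1604 tags, and at Runx2, with 493, 919 and 1343. The longest losses spanned 18 kb, at 6030469F06Rik with 1280, 616 and 418 tags and at Cecr5 with 1013, 579 and 404. A lost run of 15 kb at Hcst, which encodes the signalling adaptor DAP10, had 989, 531 and 330 tags.

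Each window within 100 kb was assigned to the nearest protein-coding start, which gave marked windows to 14968 genes. Of their windows 20.1% were gained and 7.39% lost, and 47.4% of the genes had a gained window and 29.5% a lost one. Genes with most gained windows were Arhgap26, with 51 of 118, the LIM protein gene Lpp with 41 of 68, Rbpj with 33 of 56, Plekhg1 with 30 of 59 and Fndc3a with 30 of 56. They were followed by the histone deacetylase gene Hdac4 with 29 of 50, Pid1 with 28 of 31 and Irf2bp2 with 26 of 49. At Pid1 the marked windows together held 997, 2658 and 3420 tags at the 3 times. Long genes with many marked windows have more that can change, and Pid1 was the one among the 8 in which nearly all of them did.

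Most lost windows fell to Cplx2, a complexin of vesicle release, with 17 of 34 windows and 5517, 4200 and 3112 tags at 12, 24 and 48 hpi. Others with many were Zfp238 with 12 of 33, Cecr2 with 11 of 40 and Itga4, the integrin alpha 4 chain, with 11 of 35. Ipo11 lost 11 of 25, Ahi1 10 of 47 and Mbnl1 10 of 68. H3K27Ac over the marked windows of Cplx2 and Zfp238 was also lower at 48 hpi, with 7602 and 2951 tags and with 5124 and 2111. At Mbnl1 it was 10139 and 11186 tags.

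Genes of the macrophage were then read as lists, set against the 47.4% of all genes with a gained and the 29.5% with a lost window. In the 4 macrophage lists together, 66 of 95 genes with marked windows had a gained one, 69.5%, and 49 had a lost one, 51.6%. These genes had more marked windows than others, 9 against 4 at the median, and so more chances of a call. By window, 317 of their 1172 were gained, 27%, and 84 were lost, 7.17%, against 20.1% and 7.39% over all genes.

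Among macrophage receptors 32.8% of windows were gained and 7.36% lost, and the summed tags were higher at 48 than at 12 hpi for 19 of 29 genes, and for 18 and 23 under scaling by windows enriched at no and at all times, where 7117 of 14968 genes were higher over all at equal depth. Tlr4, the endotoxin receptor, had 21 gained and 2 lost windows of 38, with 2584, 3073 and 3951 tags in all. Sirpa, the receptor that reads CD47 on other cells, gained 11 of 24 windows, with 1739, 2584 and 2869 tags. Tlr2, the receptor for bacterial lipoproteins, gained 8 and lost 2 of 33, with 3595, 4091 and 4036 tags. Among cytokines and chemokines 28% of windows were gained and 6.45% lost. Summed tags were higher at 48 hpi for 10 of 17 of these genes at equal depth, or 13 under the scaling by windows enriched at all times. Spp1, which encodes osteopontin, gained all 13 of its marked windows, with 128, 339 and 838 tags, and the inflammatory cytokine gene Il1b gained 11 of 22, with 1676, 1944 and 2152. Il6, another inflammatory cytokine gene, gained 7 and lost 1 of 27, with 3017, 3002 and 3175 tags, so its total hardly moved. Vegfa gained 2 and lost 4 of 23, with 3686, 3033 and 2447 tags, and Ccl9 gained 0 and lost 3 of 9, with 1684, 1262 and 1062.

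Lysosome, protease and oxidase genes were more mixed, with 21% of windows gained and 9.17% lost, and 9 of 26 genes were higher at 48 hpi at equal depth, or 14 under the scaling by windows enriched at all times. Ctsb, the protease cathepsin B, gained 4 and lost 3 of 14 windows, with 1913, 1968 and 2094 tags, and Lamp2, a lysosomal membrane protein gene, gained 7 of 15, with 561, 661 and 759. The NADPH oxidase subunit gene Cybb gained 2 and lost 3 of 17. The median log2 change of this list was -0.16, and 0.08 under the scaling by windows enriched at all times. Of the windows of myeloid transcription factors 25.5% were gained and 6.26% lost. Summed tags were higher at 48 hpi for 14 of 23 genes at equal depth, or 17 under the scaling by windows enriched at all times. Runx1, a regulator of blood cell formation, gained 17 and lost 4 of 85, with 10852, 11915 and 11687 tags, Klf6 gained 17 and lost 1 of 42, and the AP-1 subunit gene Jun gained 12 and lost 1 of 23, with 972, 1717 and 1919. Mitf, a regulator of lysosomal and osteoclast genes, gained 13 of 18, with 488, 960 and 1324 tags. Other members went the other way. Irf8 gained 1 and lost 4 of 40 windows, with 6866, 5478 and 4610 tags. Cebpb gained 0 and lost 0 of 4, with 750, 578 and 482. Spi1, the gene of PU.1, had 2264, 2046 and 2004 tags, a difference smaller than the shift of 0.25 (log2) by scaling.

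In the 2 B cell lists the balance was the other way, with 31 of 40 genes holding a lost window, 77.5%, and 14 a gained one, 35%. Scaling by windows enriched at all times brought the 31 genes down to 17, and these genes too had more marked windows than others, 10.5 against 4 at the median. Of their 777 windows 94 were lost, 12.1%, and 38 gained, 4.89%. For B lineage transcription factors 11.4% of windows were lost and 4.21% gained, and none of the 18 genes had more tags at 48 than at 12 hpi at equal depth, where the scaling by windows enriched at all times put 5 of them higher. Bach2, a repressor needed in B cells, lost 9 and gained 5 of 73 windows, with 5319, 5024 and 4367 tags. Tcf4, an E protein, lost 7 and gained 4 of 77, and Myb, the progenitor factor, lost 8 and gained 1 of 32, with 3858, 2843 and 2183 tags. In both the totals and the counts of windows, the change was one of degree.

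For pre-B receptor, surface and recombination genes 14.2% of windows were lost and 7.1% gained. The surface protein gene Cd24a lost each of its 4 windows, with 250, 165 and 113 tags, and Cd79a, a signalling chain of the B cell receptor, lost each of its 3, with 328, 241 and 151. Bank1, a B cell adaptor, went the other way, with 9 gained and 2 lost of 28 windows and 1608, 1659 and 2011 tags, and so did the cytokine receptor gene Flt3, with 3 gained of 11. The median log2 changes were 0.35 for macrophage receptors, 0.07 for cytokines, 0.11 for myeloid factors, -0.37 for B lineage factors and -0.53 for pre-B genes, against -0.03 over all genes. Among all of these lists, the direction of the median turned with the scaling only for the lysosome list, although the medians of cytokines and myeloid factors came down to 0.01 and 0.04 under scaling by windows enriched at no time.

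Lists of other cell types were small. For neutrophil granule genes 7 of 20 windows were gained and 1 lost, and 5 of the gains were at S100a8, a calcium-binding protein that monocytes also make, with 61, 208 and 291 tags. T cell genes had 4 gained and 11 lost of 42 windows, with 6 of the losses at Tcf7 (2832, 2044 and 1539 tags). Erythroid and megakaryocyte genes had 0 gained and 3 lost of 22, with 2 of the losses at the transferrin receptor gene Tfrc. Genes that every cell uses had 7 gained and 11 lost of 64 windows, 10.9% and 17.2%, with a median log2 change of -0.39, which places their change on the side of the B cell lists. Their losses included 3 windows at Actb, which encodes cytoplasmic actin. The share of windows lost was thus no higher in the B cell lists than in these genes.

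**Figure D5:**
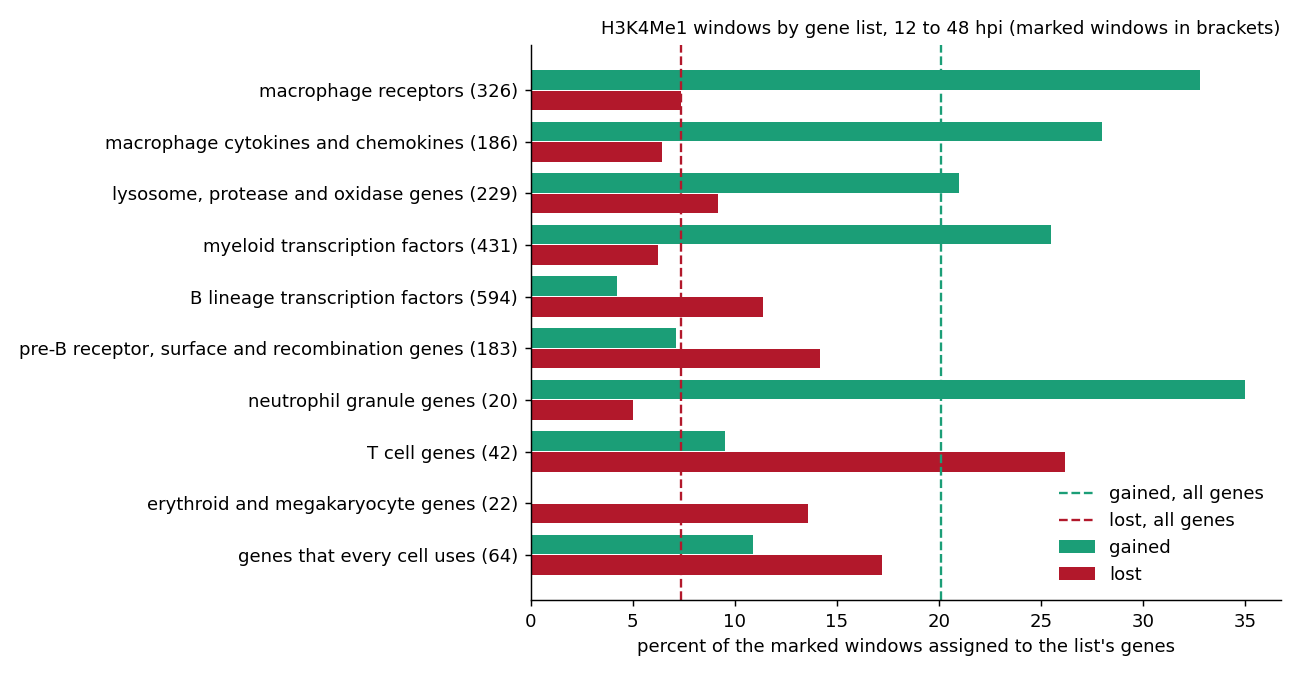
Percent of the marked windows assigned to the genes of each of the 10 lists that were gained or lost between 12 and 48 hpi, with the number of marked windows in brackets and the values over all genes as dashed lines (20.1% gained, 7.39% lost). Gains are above losses in the 4 macrophage lists and the neutrophil list, and losses above gains in the others, of which several rest on few windows.

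At several macrophage genes H3K4Me1 at the start was lower at 48 than at 12 hpi while acetylation was higher. Within 1500 bp of the start of Cd14, H3K4Me1 was 230, 144 and 75 tags at 12, 24 and 48 hpi and H3K27Ac 432, 1043 and 1278. At Lyz2, the lysozyme gene of macrophages, H3K4Me1 was 123, 58 and 56 tags and H3K27Ac 547, 809 and 714, and at the lysosomal glycoprotein gene Cd68 H3K4Me1 was 279, 142 and 111 tags and H3K27Ac 348, 705 and 472. Not all macrophage starts were alike, since H3K4Me1 at Itgam was 60, 170 and 135 tags and at Emr1, which encodes F4/80, 46, 141 and 133. At the pre-B gene Cd79a, H3K4Me1 was 83, 62 and 55 tags, and there H3K27Ac was lower at 48 hpi too.

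The lost windows with H3K27Ac at 12 or 48 hpi and a protein-coding start within 100 kb were therefore split by list, a step chosen after the values had been seen. Of the 5407 such windows, 95 had at least 2-fold more H3K27Ac at 48 hpi, 1.76%, and 1603 at least 2-fold less, 29.6%. At genes of the macrophage lists 8 of 77 had at least 2-fold more, 10.4%, and 11 at least 2-fold less, 14.3%, with a median log2 change of H3K27Ac of -0.03. At genes of the B cell lists 1 of 79 had at least 2-fold more, 1.27%, and 30 at least 2-fold less, 38%, with a median of -0.90. The split was prompted by genes such as Cd14, and 2 of the 8 windows are those of Cd14, so the count in part repeats that observation.

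The 95 windows lay at 89 genes, and 35 of them were near a start. Over all lost windows with H3K27Ac, at any distance from a gene, 2255 of 5787 were near a start. At least 2-fold more H3K27Ac was found in 1.6% of those near and 1.84% of those beyond, so it was no more frequent near starts. Of the 8 windows of the macrophage lists, 7 lay at 5 receptor genes. At Tlr4 H3K4Me1 was 85, 79 and 23 tags and H3K27Ac 95, 272 and 541, and at Ccr1, a chemokine receptor gene, the window 3024 bp from the start had 81, 42 and 7 tags of H3K4Me1 and 167, 449 and 824 of H3K27Ac. At Tlr7, a receptor for single-stranded RNA, H3K4Me1 was 126, 98 and 32 tags and H3K27Ac 104, 358 and 398. In these 3 windows H3K4Me1 was lower and H3K27Ac higher at each step. The opposite, a gained window with at least 2-fold less H3K27Ac, was found 11 times within 100 kb of a protein-coding start.

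Of the 6 motifs searched on both strands, AP-1 and EBF1 differed most between gained and lost windows. Beyond starts, the AP-1 letters TGANTCA, the site of Jun and Fos proteins, were in 72.8% of gained, 56.1% of lost and 63.1% of the other marked windows, where 60% of all mappable windows of this length held them. The share was larger with stronger gains: 70.5% of gains of 2- to 4-fold, 77% of those of 4- to 8-fold and 81.6% of those of at least 8-fold. The EBF1 letters CCCNNGGG, the site of a B lineage factor, were more frequent in lost windows, with 41.6% of gained, 55.9% of lost and 48.2% of other marked windows and 36% of all mappable windows. Their share did not grow with the size of the loss, with 56.2% at 2- to 4-fold, 51.9% of the 185 windows at 4- to 8-fold and 31.8% of the 22 beyond, nor did it change much over gains of rising size, with 42%, 40.8% and 40.4%. Both motifs read the same on either strand. Near starts the AP-1 letters were in 69.3%, 49.1% and 56.4%, and the EBF1 letters in 47.7%, 71.5% and 59.3%. The RUNX letters TGTGGT also differed near starts, with 92.8%, 86.5% and 90.3%.

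The windows also differed in GC content, with 44.1% for gained and 45.3% for lost windows beyond starts, and 45.9% and 50.3% near starts. The motif shares near starts were left unmatched for GC, and windows beyond starts of like GC content were compared. With 40 to 44% GC the AP-1 letters were in 73.1% of gained and 58.6% of lost windows, and with 48 to 52% GC in 69.7% and 53.9%. The EBF1 letters were in 33.6% and 44.2%, and in 64.2% and 73%. Below 40% GC they were in 21.9% of gained and 26.2% of lost windows, the smallest gap of the GC classes. The other motifs differed little between gained, lost and other marked windows beyond starts. The C/EBP letters TTGCNNAA were in 72.8%, 72.3% and 72.5%, the PU.1 letters GAGGAAGT in 20.1%, 21.7% and 22.7%, the E protein letters CAGGTG in 86.7%, 87.8% and 87.1% and the RUNX letters TGTGGT in 92.6%, 92.3% and 92.6%. Over all mappable windows of 3 kb the shares were 76.2% for C/EBP, 16.7% for PU.1, 82.5% for E proteins and 89.3% for RUNX, so apart from PU.1 most windows of this length hold a match. A match is a description of the sequence, and binding was not analysed here.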

How the data were processed

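ChIP-seq for H3K4Me1, H3K27Ac and H3K27Me3 was done in C10 cells at 5 times after induction, with 1 library each, grouped by mark and time from the labels. The authors aligned reads to mm9 with Eland or Bowtie, without mismatches, and kept unique alignments, dropping tags that were identical. The aligner of each library is not given in the sources used here. The deposited files hold positions of 36 bp tags without strand, and no counts, so all counts were made here. At 48 hpi the H3K4Me1 file still held 6760 positions with more than 2 tags, and at 12 and 24 hpi none. The share of repeated tags was 2.08%, 1.34% and 1.1% at 12, 24 and 48 hpi.

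Tags were placed 18 bp from their start, 1 was kept per position, and the libraries of each mark were thinned at random to the smallest. Ratios used a pseudocount of 1 tag, except the exact intervals, which used the counts. Starts came from GENCODE vM1 (86916 transcript starts, 37252 genes) on NCBIM37, which is mm9, and sequences from the same genome. A window's gene was the nearest protein-coding start.

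Named windows were the 8 gains and 8 losses beyond starts and the 5 of each near starts whose ratio interval kept farthest from 1, with 1 window per gene. Also named were the 8 genes with most gained and the 8 with most lost windows, and about 3 genes per list with most called windows. A few genes that this rule names are not reported here. Further genes were named after their values had been seen: the marker genes at their starts, the longest runs, Jun, Cybb, Flt3, Ccr1, Tlr7, Irf8, Cebpb, Spi1, Vegfa and Ccl9. The 10 lists were macrophage receptors, macrophage cytokines and chemokines, lysosome, protease and oxidase genes, myeloid transcription factors, B lineage transcription factors, pre-B receptor, surface and recombination genes, neutrophil granule genes, T cell genes, erythroid and megakaryocyte genes, and genes that every cell uses. The comparison and the lists were chosen with earlier results of these data known. The listed Spi1 and Tfec were matched to the annotation through RefSeq synonyms (GRCm38). The ranked tile of Dusp16 lies in untranslated sequence, so the next gain, Slc2a1, was shown. GC classes, fold classes and the motif stretches were chosen after the values had been seen.

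Alternatives were scaling by windows enriched at all or at no times, repeated tags kept, windows of 1000 and 6000 bp, a stricter enrichment threshold, other folds, a pseudocount of 5 tags, other distances from a start, protein-coding starts only, a grid shifted by 1500 bp, genes within 25 kb, the ratio's interval as a further condition and a second random thinning. The calls were run on simulated Poisson counts with planted changes. Such counts hold no difference between libraries, so this run does not measure the false calls that such differences bring. Tools were Python 3.11.15, NumPy 2.4.6, SciPy 1.17.1, pandas 2.3.3, Matplotlib 3.10.9 and PyArrow 21.0.0. RNA and transcription factor binding were not analysed here.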

Additional observations from a re-analysis of the deposited data

Results flagged for a closer look

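Chromosome Y was left out of the comparison, and its tags were counted apart. The H3K4Me1 libraries held 771 positions on it at 12 hpi, 565 at 24 hpi and 622 at 48 hpi. These counts come before thinning, from libraries with 16.41, 12.48 and 10.91 M positions on the chromosomes used. Part of this chromosome resembles others, and where these tags arose was not tested.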

How the results depend on the processing

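No paired analysis was possible because there was 1 library per mark and time. For the same reason no value has a replicate error, and differences between libraries in antibody yield or handling cannot be told apart from time. Counts of windows are limited by the 10.91 M tags of the 48 hpi library.

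Gains outnumbered losses under each alternative for which both were counted anew, and lost windows lay near starts more often than gained windows in each of the alternatives in which that share was computed, which left out the pseudocount and the 25 kb reach. Gains ranged from 6782 to 59582 and losses from 428 to 30962. Of the main values 2 turned in direction, apart from the balance near starts, the distance class and the gene list already given with their values: the median of all marked windows was -0.02 under scaling by windows enriched at no time, and the median near starts was 0.03 under scaling by windows enriched at all times.

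With scaling by windows enriched at no time, the medians near and beyond starts were -0.28 and 0.09, the rise and fall reached at 24 hpi 53% and 57.8%, and the H3K27Ac changes at gains and losses 1.29 and -0.41. With scaling by windows enriched at all times, 3796 windows were lost, 37.8% of them near a start, the medians of all and of beyond windows were 0.29 and 0.40, the rise and fall at 24 hpi 47.3% and 59.3%, the H3K27Ac change at losses -0.41, and 17 B cell list genes had a lost window. With repeated tags kept, the median beyond starts was 0.17 and the H3K27Ac change at losses -0.54.

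Windows of 1000 bp gave 59582 gains and 30962 losses, 14% and 32.8% of them near a start, a median beyond starts of 0.15, 44.4% of the rise at 24 hpi, and H3K27Ac changes of 1.06 and -0.42. Windows of 6000 bp gave 11953 gains and 3016 losses, 11.6% and 29.9% of them near a start, medians of -0.17 and 0.13, 64.5% of the fall at 24 hpi, H3K27Ac changes of 1.16 and -0.62, and 20 B cell list genes with a lost window. The stricter enrichment threshold of 1e-05 gave medians of 0.00, -0.23 and 0.12 for all, near and beyond windows, and an H3K27Ac change of 1.20 at gains.

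A change of at least 1.5-fold gave 34507 gains and 23449 losses, 13.1% and 31.2% of them near a start, 51.5% of the rise at 24 hpi, and H3K27Ac changes of 0.95 and -0.44. A change of at least 4-fold gave 6782 gains and 428 losses, 10.5% and 51.6% of them near a start, 38.3% of the rise and 70.2% of the fall at 24 hpi, H3K27Ac changes of 1.65 and -0.20, and 39 macrophage list genes with a gained and 4 B cell list genes with a lost window. A pseudocount of 5 tags gave medians of -0.20 and 0.15 near and beyond starts and an H3K27Ac change of 1.04 at gains. Counting as near within 1000 bp, 5.09% of gains and 19% of losses were near a start, with medians of -0.29 and 0.10, and within 5000 bp 24.9% and 46.7%, with medians of -0.12 and 0.17. With starts of protein-coding genes only, 9.7% of gains and 30.8% of losses were near, with a median of -0.23 there. On the log2 scale, an alternative chosen after seeing the data, the rise and fall reached at 24 hpi were 62.7% and 52.8%. The other 84 values kept their direction, with counts within 1.5 times of those reported. Among them are those with the ratio's interval as a further condition, which the calls meet by their minimum of tags and fold. Apart from scaling and window construction, the causes of these moves were not tested.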
